A study of Mus musculus with 7 samples.

Results

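The genes described here carry a symbol ending in -ps, with or without a number, and had a mean of at least 1 FPKM, the number of fragments per kilobase of transcript at a common sequencing depth, over 7 whole mouse embryos. Of 25461 genes in the table, 266 had such a symbol. The members were chosen by their symbol and by their mean FPKM over the 7 embryos, which kept 100 of them and left out 166. The parent of a member was the gene whose symbol stands before -ps, and 77 members had their parent in the table, 67 parents in all.

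Processed pseudogenes arise when a messenger RNA is copied back into DNA and inserted elsewhere in the genome, so that they lack introns and usually lack the promoter of the parent gene. The copies resemble the parent most closely in the coding part. Genes that are transcribed strongly in the germ line, those of ribosomal proteins above all, have left many such copies in mammalian genomes. A short read from a copy can fit its parent just as well, and the quantification must then divide the read between both.

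The study compared SLMAP3 KO with WT embryos of the B6C3F1 strain at embryonic day 11.5. The KO allele lacked exon 3 of Slmap, which had been removed through loxP sites with CMV-cre. The cre was then bred out, and the KO embryos came from heterozygous parents. Only the long isoform SLMAP3 was lost by design, so that the summed level of the gene was not meant to reach 0. The 3 KO embryos were KOAC8-6, KOAC10-5 and KOAC10-8, and the 4 WT embryos were KOAC8-1, KOAC10-7, KOAC9-1 and KOAC10-2, where KOAC is part of each embryo's label and not its genotype. Values are given in these orders. Each embryo without its tail gave 1 library of messenger RNA, made with a kit that does not keep the strand.

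The KO embryos had Slmap at 19.6, 16.0 and 16.6 FPKM and the WT embryos at 31.2, 23.9, 29.1 and 22.8 FPKM, and the groups did not overlap (log2 fold change -0.59 ± 0.13 SE, limma, adjusted p = 0.278). The summed FPKM of 8 fetal liver markers ran from 25.4 to 499 in KO and from 36.9 to 774 in WT embryos. That of 8 skeletal muscle markers ran from 84.8 to 152 in KO and from 229 to 377 in WT embryos, without overlap, and their part in the values below was not tested. Sums of 6 genes each ran from 645 to 719 in KO and 586 to 665 in WT embryos for neural progenitors, from 411 to 533 and 353 to 434 for heart, and from 11050.0 to 15222 and 15128 to 20456 for erythroid cells. Xist was at 0.0853 to 0.33 FPKM in KOAC10-8 and KOAC9-1 and at 158 to 181 FPKM in the other 5 embryos. In whole embryos, fewer cells of a type and less RNA per cell cannot be told apart.

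The likeness of the copies to their parents can be read from their sequences. Stretches of 80 coding bases are shown for some of the members whose values differed widely between embryos. For copies that differed from the parent, these stretches were the ones with the most differences and without inserted or missing bases. They come from the GENCODE M21 transcripts of GRCm38, 5′ to 3′, with capitals where copy and parent differ, and positions are counted from 1 at the first base of the parent's start codon. Nutf2-ps1 held all 381 coding bases of Nutf2 without a difference, and its first 80 bases (chr19:53588909-53588988, minus strand) read the same as in the parent.
Nutf2 and Nutf2-ps1: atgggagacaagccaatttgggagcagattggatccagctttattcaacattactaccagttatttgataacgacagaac
Rps18-ps3 differed from Rps18 at 3 of 456 coding bases, of which G181C lies in this stretch (chr8:107263029-107263108, minus strand).
Rps18: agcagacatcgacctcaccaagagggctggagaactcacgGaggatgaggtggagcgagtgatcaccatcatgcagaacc
Rps18-ps3: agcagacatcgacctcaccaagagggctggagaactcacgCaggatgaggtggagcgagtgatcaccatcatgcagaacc
Rpl3-ps1 differed from Rpl3 at 2 of 1209 coding bases, and C57A is one of them (chrX:13202588-13202667, plus strand).
Rpl3: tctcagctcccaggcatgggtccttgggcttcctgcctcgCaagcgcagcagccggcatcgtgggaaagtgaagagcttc
Rpl3-ps1: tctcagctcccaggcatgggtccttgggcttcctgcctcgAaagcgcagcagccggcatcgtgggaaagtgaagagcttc
Rpl15-ps2 had 8 substitutions and 2 inserted or missing bases over the 612 coding bases of Rpl15, whereas Rpl15-ps3 had 0 of either. The substitutions C322T, G323A and C354G lie in this stretch of Rpl15-ps2 (chr9:72061227-72061306, plus strand).
Rpl15: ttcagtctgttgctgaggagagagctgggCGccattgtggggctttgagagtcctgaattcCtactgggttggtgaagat
Rpl15-ps2: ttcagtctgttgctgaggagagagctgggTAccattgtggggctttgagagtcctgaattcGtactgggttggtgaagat
Rps15a-ps8 stood farther from its parent, with 26 substitutions and 7 inserted or missing bases against the 390 coding bases of Rps15a. Of the substitutions, 12 lie in this stretch (chr4:53791340-53791419, minus strand).
Rps15a: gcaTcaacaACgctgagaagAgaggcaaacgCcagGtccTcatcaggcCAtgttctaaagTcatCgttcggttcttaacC
Rps15a-ps8: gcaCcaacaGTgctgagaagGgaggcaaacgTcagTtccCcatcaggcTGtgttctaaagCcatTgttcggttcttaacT
Pcna-ps2 had 6 substitutions and 2 inserted or missing bases against the 783 coding bases of Pcna, with A144G and A177C in this stretch (chr19:9283499-9283578, plus strand).
Pcna: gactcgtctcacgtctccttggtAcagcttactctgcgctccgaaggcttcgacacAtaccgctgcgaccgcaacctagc
Pcna-ps2: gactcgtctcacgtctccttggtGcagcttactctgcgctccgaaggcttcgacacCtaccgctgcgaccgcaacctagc

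The label of processed pseudogene held for most members but not for all. GENCODE M21 listed 71 of the 100 as processed, 22 as unprocessed or unitary pseudogenes, which arise from a duplicated or a disabled gene, and 7 as other kinds of gene. The 7 were Rpl10-ps3, Rps12-ps3, Ndufb1-ps, Tmem250-ps, Ftl1-ps1, Nutf2-ps1 and Sfta3-ps. For the 77 members with a parent, the shorter transcript of each pair was placed whole within the longer. Substituted, inserted and missing bases all counted as differences, relative to the length of the shorter transcript. Identity by this measure had a median of 98.7%, from 51.76% to 100%. In 16 members every stretch of 50 bases also occurred in another gene of the annotation, in 58 at least 50% of the stretches did, and in 9 none did. The members lay on 21 chromosomes, and only 7 shared a chromosome with their parent. Another gene overlapped 36 of them, with 21 in introns only, and the leading overlapping gene was on the opposite strand for 23. Reads from a host gene on the other strand cannot be told apart from reads of the member in these libraries.

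Members were put into classes by the symbol of the parent, and such lists of symbols need not hold every gene of a function. Copies of ribosomal protein genes were the class with the highest summed level, with 34 members of 25 parents and a summed mean of 8539 FPKM. There were 3 members each for chromatin proteins, energy metabolism, and translation and folding, 1 for RNA binding, and 56 members in none of these classes, with a summed mean of 2913 FPKM. All members together held 1.501% to 1.73% of the summed FPKM in KO and 1.25% to 1.56% in WT embryos. An exact two-sided permutation test on the summed FPKM of the members, over the 35 splits of the embryos into 3 and 4, gave p = 0.143, where the smallest possible p is 0.0286.

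Of the 8 most abundant members, 6 had an SD of log2(FPKM + 1) within genotypes of 0.09 to 0.26. The median of all genes tested with a mean over 100 FPKM was 0.104. Rps23-ps1, a copy of the gene of a small-subunit ribosomal protein, was at 1667, 1484 and 1963 FPKM in KO and at 1481, 1561, 1477 and 1527 FPKM in WT embryos. It stood above Rps23 itself, which averaged 594 FPKM, and held 72.8% of the sum of both. Tpt1-ps3, a copy of the gene of the growth-related protein TPT1, averaged 1346 FPKM, and Tpt1 averaged 2287 FPKM. Rpl10-ps3, Rpl28-ps1 and Rpl27-ps3 averaged 1075, 813 and 644 FPKM, against 419.6, 722 and 468 FPKM for their parents, which encode large-subunit proteins. Rps12-ps3 averaged 614 FPKM and Rps12 755 FPKM. None of these 6 members passed the test (limma, adjusted p from 0.405 to 0.757), and 5 of the 6 shared every 50-base stretch with the parent (Rpl10-ps3 shared 96.1%). Among the 18 members over 100 FPKM, 13 shared at least 95% of their stretches with another gene. Over all 77 pairs, 11 members exceeded their parent and 38 were under 10% of it. Cyp4b1-ps2, Nlrp5-ps and Mrpl23-ps1 also held most of the sum with the parent, at 94.7%, 96.0% and 75.3%.

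Between KO and WT embryos, 1 of the 100 members passed the test (limma on log2(FPKM + 1), Benjamini-Hochberg adjustment over 16095 genes), where 0.0373% of all genes tested did. An unadjusted p under 0.05 was reached by 15 members, against 11.5% of all genes. The KO values lay all above the WT values in 5 members and all below in 6, against 5.61% and 5.98% of all genes, so that these shares were near the background. The median log2 fold change was 0.037 over the members, 0.011 over all genes tested, 0.078 over 471 processed pseudogenes without a -ps symbol and 0.058 over the 65 parents tested. Among the 34 copies of ribosomal protein genes, 18 had a positive and 16 a negative log2 fold change (median 0.056). Of the parents, Rps18 passed the test and 3 had an unadjusted p under 0.05.

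**Figure D1:**
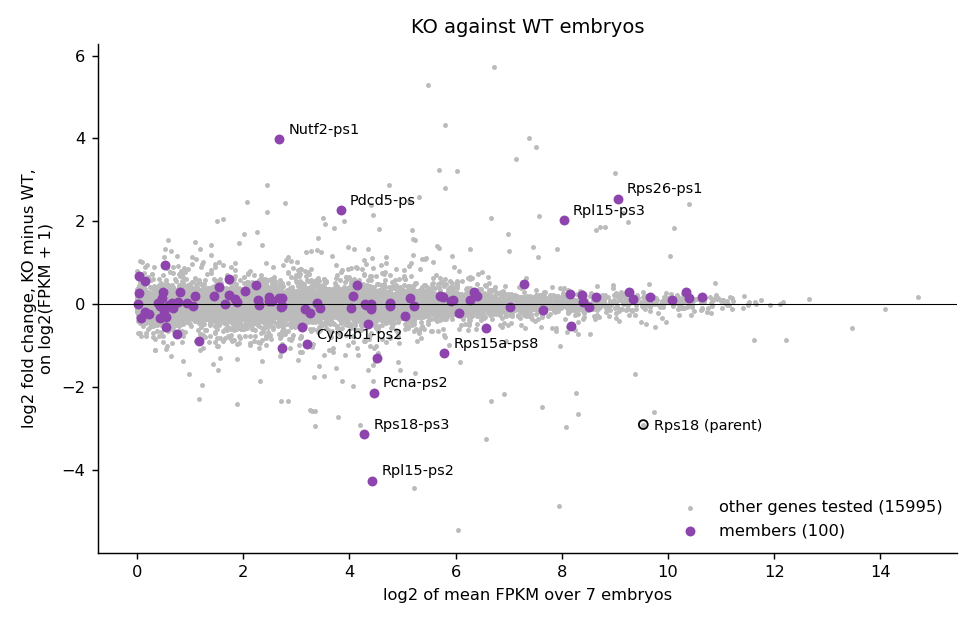
Log2 fold change, KO minus WT, on the log2(FPKM + 1) scale (vertical axis) against log2 of the mean FPKM over the 7 embryos (horizontal axis). Purple points are the 100 members, grey points the other genes tested, and the open circle is the parent Rps18. Most members lie near 0, and Nutf2-ps1, Rps26-ps1, Rpl15-ps3, Pdcd5-ps, Rps18-ps3, Rpl15-ps2 and Pcna-ps2 lie more than 2 from it.

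The member that passed the test was Nutf2-ps1, a copy of the gene of nuclear transport factor 2, which carries Ran into the nucleus. Nutf2-ps1 (chr19:53588168-53589068, minus strand) had 12.8, 15.4 and 16.7 FPKM in KO embryos and was listed at 0 in all 4 WT embryos (limma, adjusted p = 7.88e-06). With an SD of 0 in WT embryos, this p does not measure a spread between them. An exact two-sided permutation test on the values gave p = 0.0286, the smallest possible, which the lack of overlap fixed. The values of Nutf2-ps1 rested on a mean normalized count of 271 over the embryos. It stayed under an adjusted p of 0.05 in all 15 alternatives run on it, from 2.68e-06 to 0.00328, which start from the same WT values of 0. The parent Nutf2 was at 155, 147 and 176 FPKM in KO and at 165, 164, 168 and 164 FPKM in WT embryos, and its groups overlapped. Nutf2-ps1 shared 96.1% of its 50-base stretches with Nutf2. It made up 7.59% to 9.51% of the sum of both in KO embryos, and that sum overlapped between the genotypes (exact two-sided permutation test, p = 0.314).

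Rps18-ps3 (chr8:107262793-107263248, minus strand) and its parent Rps18, the gene of a small-subunit ribosomal protein, were both lower in KO embryos. Rps18-ps3 was at 2.66, 5.19 and 1.17 FPKM in KO and at 36.1, 26.3, 26.2 and 38.5 FPKM in WT embryos, without overlap. Its log2 fold change of -3.14 ± 0.34 (SE) missed the threshold (limma, adjusted p = 0.0539) and passed it without KOAC10-5 (adjusted p = 0.0213). KOAC10-5 held the highest KO value, so that the lower p followed from leaving it out. Rps18 fell, from 1169 to 1184 FPKM in WT to 152 to 163 FPKM in KO embryos (log2 fold change -2.90 ± 0.05 SE, limma, adjusted p = 1.01e-06), so that Rps18-ps3 made up 0.711% to 3.30% of the sum of both in KO and 2.17% to 3.15% in WT embryos. The gene sharing most of the copy's stretches was Gm11361, with 75.9%, which stood at 672 to 842 FPKM in KO and at 197 to 220.2 FPKM in WT embryos.

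The other members without overlap did not pass the test. Cyp4b1-ps2, an unprocessed copy of a cytochrome P450 gene, was at 6.17, 3.83 and 6.82 FPKM in KO and at 15.9, 8.61, 9.62 and 13.6 FPKM in WT embryos (log2 fold change -0.96 ± 0.25 SE, limma, adjusted p = 0.293). The parent Cyp4b1 averaged 0.493 FPKM, with which Cyp4b1-ps2 shared 34.2% of its stretches. Ftl1-ps1, a copy of the gene of the ferritin light chain, was at 7.31, 6.40 and 5.94 FPKM in KO and at 8.74, 9.97, 13.3 and 8.81 FPKM in WT embryos, while Ftl1 averaged 1357 and 1418 FPKM in KO and WT. Bambi-ps1, a copy of the gene of a decoy receptor for TGF-beta ligands, averaged 1.05 ± 0.0702 FPKM (SD, n = 3) in KO, below the 1.59 ± 0.292 FPKM (SD, n = 4) of WT embryos. Ndufb1-ps, named after a subunit of respiratory complex I, averaged 61.4 ± 3.53 FPKM (SD, n = 3) in KO, below the 70.7 ± 1.22 FPKM (SD, n = 4) of WT embryos. Gpr137b-ps, at 16.2 to 20.2 FPKM in KO and 15.3 to 16.0 FPKM in WT embryos, lay the other way. Rpl30-ps2 was at 2.17 to 2.37 FPKM in KO and 0 to 2.06 FPKM in WT embryos, but its mean normalized count was 4.27. Those of Bambi-ps1 and Cyp4b1-ps2 were also low, at 32.2 and 52.1. None of these 6 members passed (limma, adjusted p from 0.286 to 0.411). Slc2a4rg-ps, the remaining one of the 11 members without overlap, named after its values were seen, was at 5.90 to 6.13 FPKM in KO and 4.56 to 5.76 FPKM in WT embryos.

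Wide differences also lay between embryos of one genotype. In 13 members, a selection made after the values were seen, the highest FPKM + 1 over the 7 embryos was at least 10 times the lowest. This was 13% of the members, 12.1% of the processed pseudogenes without a -ps symbol and 1.17% of all genes tested, and 0 of the 65 parents tested. GENCODE M21 lists all 13 but Nutf2-ps1 as processed. In 9 of the 13 the KO and WT values overlapped, while those of Nutf2-ps1, Rps18-ps3, Rpl15-ps3 and Rpl15-ps2 did not. The embryos on the high side, above the widest gap in the sorted values, formed 12 different sets in the 13 members, and each embryo was on the high side for 6 to 9 of them. No embryo was therefore high or low throughout.

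**Figure D2:**
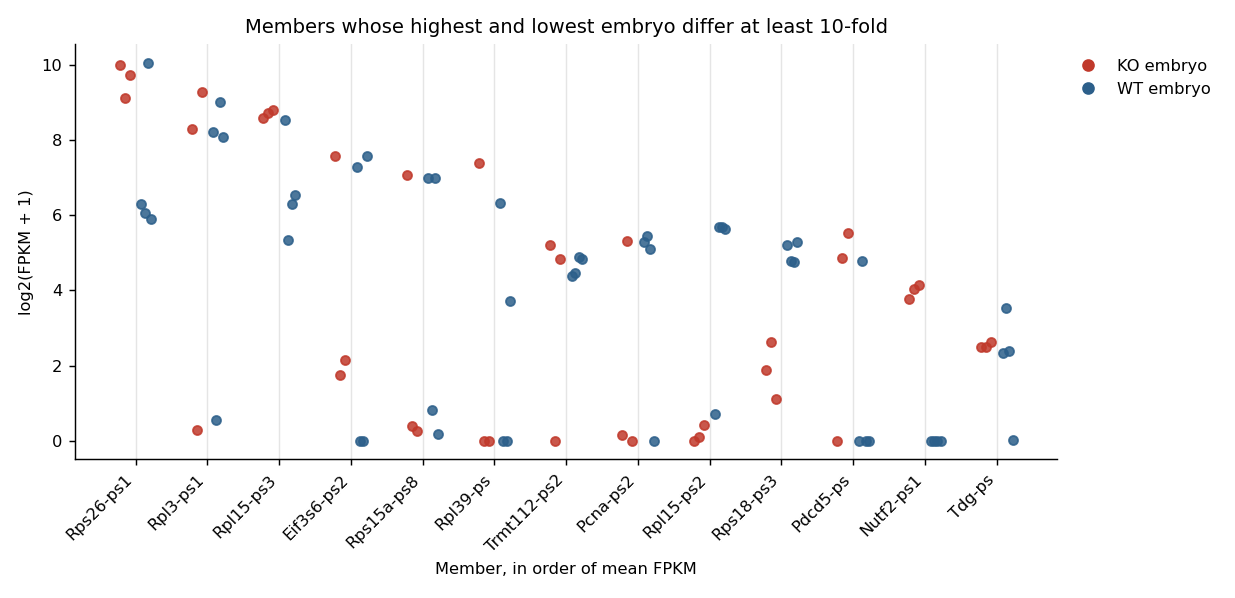
log2(FPKM + 1) in each embryo (vertical axis) of the 13 members whose highest FPKM + 1 was at least 10 times the lowest (horizontal axis, in order of mean FPKM). Red points are the 3 KO and blue points the 4 WT embryos. Most members fall into a high and a low group with no value between, and both colours stand in both groups for 6 of the members, such as Rpl3-ps1, Rps15a-ps8, Pcna-ps2 and Pdcd5-ps.

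Rpl3-ps1, on the X chromosome (chrX:13202571-13203780, plus strand), had the largest spread. It is a copy of the gene of a large-subunit protein near the peptidyl transferase centre. It was at 314, 0.212 and 625 FPKM in KO and at 295, 0.475, 523 and 273 FPKM in WT embryos. The values lay at 3 levels, with KOAC10-5 and KOAC10-7 under 1 FPKM, 3 embryos between 273 and 314 FPKM, and KOAC10-8 and KOAC9-1 at 523 FPKM and above. The pair at the top are the embryos in which Xist was under 1 FPKM and Ddx3y, a gene of the Y chromosome, was at 20.2 and 19.6 FPKM. Rpl3 ran the other way, at 913, 1099 and 739 FPKM in KO and 876, 1121, 628 and 829 FPKM in WT embryos. Their sum spread less, from 1099.6 to 1364 FPKM, with a within-genotype SD of 0.10 on the log2 scale against 0.32 for Rpl3 and 4.38 for Rpl3-ps1. Rpl3-ps1 shared 91.4% of its 50-base stretches with Rpl3.

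Rps15a-ps8 (chr4:53791070-53791456, minus strand), a copy of the gene of a small-subunit protein, showed such a split although it shared only 4.73% of its stretches with Rps15a and 9.47% with any other gene. It was at 133, 0.301 and 0.195 FPKM in KO and at 126, 0.774, 127 and 0.130 FPKM in WT embryos. KOAC8-6, KOAC8-1 and KOAC9-1 were thus at one high level and the other 4 embryos under 1 FPKM. Rps15a was at 1097 to 1434 FPKM, and the high embryos were not set apart from the others. Eif3s6-ps2 and Rpl39-ps were high in another set, KOAC8-6, KOAC8-1 and KOAC10-2. Eif3s6-ps2, named after an older symbol of a subunit of translation initiation factor eIF3, was at 189.8, 156 and 189.8 FPKM there and at 0 to 3.41 FPKM elsewhere. Rpl39-ps was at 167, 79.9 and 12.1 FPKM in these 3 and listed at 0 in the other 4. Its values rested on a mean normalized count of 14.9 and those of Eif3s6-ps2 on 62.2, against 519 for Rps15a-ps8 and 19320 for Rpl3-ps1. Eif3s6-ps2 thus had a higher mean FPKM than Rps15a-ps8 (77.3 against 55.3) on a lower count and a longer transcript (1323 against 387 bases). Its FPKM may therefore not be comparable with those of other members, and the reason was not tested.

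Both copies of Rpl15, a large-subunit gene, lie on chromosome 9, with their starts 49875330 bases apart, and were high in opposite embryos. Rpl15-ps3 was at 387, 424 and 444 FPKM in KO and at 370.3, 39.7, 78.6 and 92.3 FPKM in WT embryos (log2 fold change 2.02 ± 0.66 SE, limma, adjusted p = 0.358). Rpl15-ps2, in an intron of Tcf12 on the opposite strand, was at 0, 0.0753 and 0.331 FPKM in KO and at 0.620, 50.5, 50.8 and 48.9 FPKM in WT embryos (log2 fold change -4.26 ± 1.23 SE, limma, adjusted p = 0.327). The WT embryo KOAC8-1 stood with the KO embryos in both, and without it Rpl15-ps2 passed the test (adjusted p = 2.51e-05). KOAC8-1 was the WT embryo that broke the split, so that this low p followed from leaving it out. Rpl15 was at 614 to 716 FPKM and overlapped between the genotypes. The sum of Rpl15 and all its -ps rows ran from 1039.7 to 1161 FPKM in the 4 embryos with high Rpl15-ps3 and from 743 to 847 FPKM in the other 3.

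Rps26-ps1 (chr8:107439131-107439579, minus strand) lies in an intron of Wwp2 on the opposite strand, and its start is 176338 bases from that of Rps18-ps3. This copy of a small-subunit gene was at 1033, 562 and 858 FPKM in KO and at 78.1, 65.6, 1069 and 58.8 FPKM in WT embryos. All KO embryos and the WT embryo KOAC9-1 were high, whereas the neighbouring Rps18-ps3 was low in the KO embryos and at 26.2 FPKM in KOAC9-1. The log2 fold change was 2.55 ± 1.00 (SE; limma, adjusted p = 0.411), and without KOAC9-1 it was 3.54 (adjusted p = 0.00935). KOAC9-1 was the WT embryo on the high side, so that this lower p followed from leaving it out. Rps26 was at 697, 717 and 1102 FPKM in KO and at 1076, 953, 785 and 983 FPKM in WT embryos. Both together ran from 1019 to 1960 FPKM with the 4 embryos of high Rps26-ps1 at 1278 FPKM and above and the other 3 at 1154 FPKM and below.

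Copies of genes outside the ribosome were split as well. Pcna-ps2, a copy of the gene of the sliding clamp of DNA replication, was at 0.109, 39.2 and 0 FPKM in KO and at 38.4, 42.9, 33.2 and 0 FPKM in WT embryos. Pcna was at 201 to 206 FPKM in the embryos with Pcna-ps2 at 33.2 FPKM and above. It was at 242 to 296 FPKM in those with Pcna-ps2 listed at 0.109 FPKM and below. Pcna-ps2 shared 63.8% of its stretches with Pcna, and how the reads were divided was not tested. Pdcd5-ps, in an intron of Kcnk2 on the same strand, is a copy of an apoptosis-related gene whose coding bases it holds without a difference. It was at 28.2, 45.3 and 26.4 FPKM in KOAC10-5, KOAC10-8 and KOAC10-7 and listed at 0 in the other 4 embryos, while Pdcd5 ran from 127 to 163 FPKM with no gap between them. Trmt112-ps2, a copy of a methyltransferase cofactor gene, was listed at 0 in KOAC10-5 alone and was at 19.97 to 36.1 FPKM in the others. Tdg-ps, a copy of the thymine DNA glycosylase gene, was at 0.0133 FPKM in KOAC10-2 and at 4.01 to 10.53 FPKM elsewhere.

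Rps2-ps10 and its parent stood at opposite levels without either reaching 0. The copy of this small-subunit gene was at 1634, 1539.9 and 1064 FPKM in KO and at 1521, 793, 1651 and 804 FPKM in WT embryos. Rps2 was at 206, 194 and 1157 FPKM in KO and at 195, 837, 224 and 833 FPKM in WT embryos. The 4 embryos with Rps2 at 194 to 224 FPKM were those with Rps2-ps10 at 1521 FPKM and above. The -ps rows held 88.1% to 88.8% of the Rps2 family in these 4 embryos and 47.9% to 49.1% in the other 3, and the family sum ran from 1631 to 2222 FPKM. Rps2-ps10 shared 73.5% of its stretches with Rps2 and 96.3% with any other gene.

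**Figure D3:**
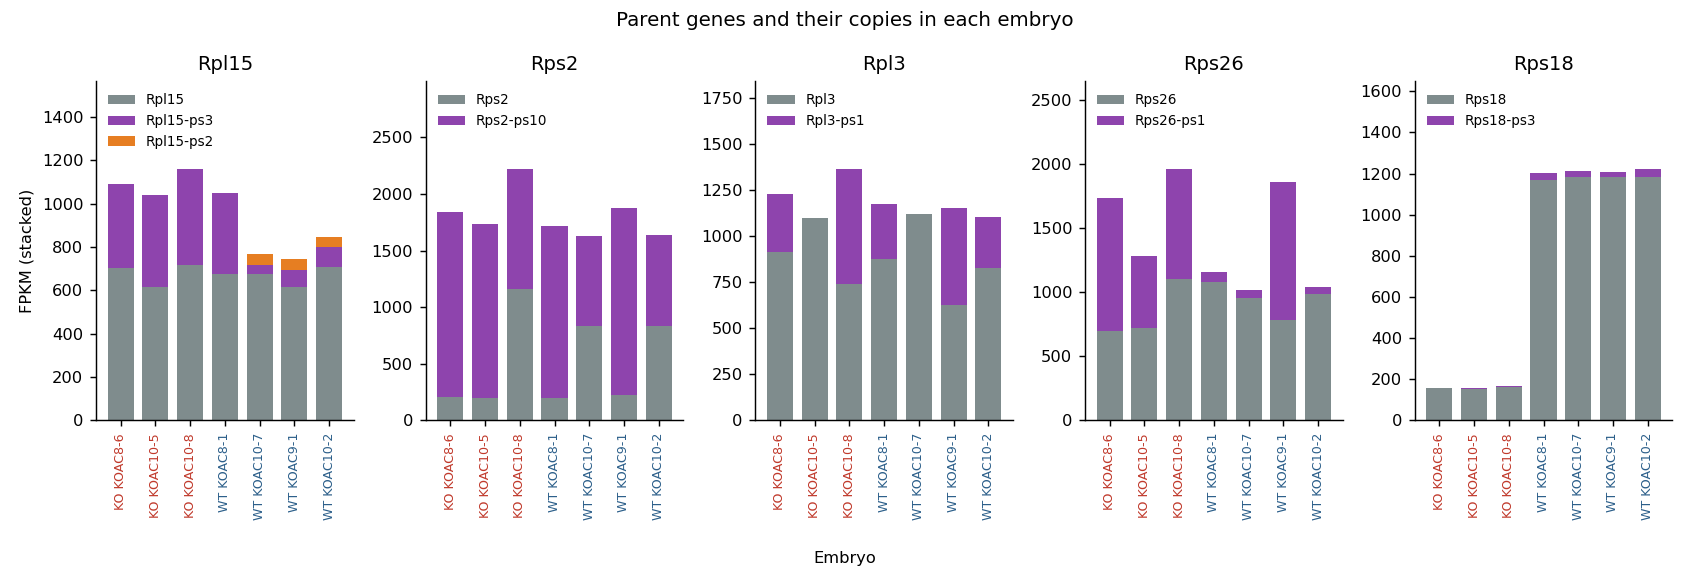
FPKM (vertical axis, stacked) of 5 parent genes (grey) and of their copies (purple, and orange for Rpl15-ps2) in each of the 3 KO and 4 WT embryos (horizontal axis, red labels for KO and blue for WT). Rps2 and Rpl3 change shares with their copies while the bars stay within 1.36 and 1.24 times of each other. The bars of Rps26 differ by up to 1.92 times, and Rps18 is low in the KO embryos alone. Gm11361, which was higher in KO embryos, is not part of the Rps18 bars.

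Of the 67 families, 30 had under 10% and 11 over 50% of their summed FPKM in -ps rows, and in 8 the share moved by over 20 percentage points between embryos. The ratio of member to parent did not overlap between the genotypes in 10 of the 77 pairs, 6 higher and 4 lower in KO embryos. Of all genes tested, 11.6% did not overlap in either direction, a share of single genes and not of ratios or sums. Among the 10 pairs was Rpl27-ps3, with a log2 ratio of 0.47 to 0.81 in KO and 0.26 to 0.43 in WT embryos. An exact two-sided permutation test gave p = 0.0286, the smallest possible, and the same p for Nutf2-ps1, Ftl1-ps1, Bambi-ps1 and Cyp4b1-ps2. These pairs were picked for not overlapping, so that a low p followed from the choice, and no p was adjusted. Family sums did not overlap in 7 of the 67 families, 3 higher and 4 lower in KO embryos, near the 11.6% of single genes. Among the sums only that of Rps18 passed the limma test (log2 fold change -2.91, adjusted p = 6.10e-07). That sum holds Rps18 and its -ps rows and leaves out Gm11361, which was higher in KO embryos. In the Pisd family, all 3 rows were lowest in the KO embryo KOAC10-8, with 28.1, 24.8 and 7.21 FPKM for Pisd, Pisd-ps1 and Pisd-ps2, against at least 42.5, 90.5 and 19.0 FPKM elsewhere. Pisd encodes the enzyme that makes phosphatidylethanolamine in mitochondria, and these copies shared 11.4% and 12.9% of their stretches with another gene.

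A mean normalized count under 100 lay behind 12 of the 18 members listed at 0 in some embryos. These 18 were listed at 0 in at least 1 embryo and reached 1 FPKM in another, 18% against 1.55% of all genes tested and 19.5% of the processed pseudogenes without a -ps symbol. Beside those above, they were Ppp1r2-ps4, Rps12-ps10, Rpl23a-ps3, Mrpl48-ps, Rps15a-ps7, Hmgb1-ps2, Rps15a-ps6, Kpna2-ps, Mid1-ps1 and Rpl31-ps21. Mrpl48-ps, a copy of the gene of a mitochondrial ribosomal protein, was listed at 0 in KOAC10-8 and at 6.52 to 8.47 FPKM in the other 6, while Mrpl48 was at 37.1 to 40.3 FPKM. The other 9 reached at most 6.16 FPKM, on mean normalized counts of 12.8 to 95.9. Mid1-ps1, annotated on the Y chromosome, was at 4.00 FPKM in KOAC8-6 and 1.74 FPKM in KOAC8-1, in which Ddx3y was at 0 and 0.00695 FPKM, and it shared 95.8% of its stretches with another gene. A mean normalized count under 100 lay behind 29 of the 100 members, and a value of 0 in them cannot be read as absence.

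The spread between embryos of one genotype was wider for the members than for all genes tested at their level, and so was that of other processed pseudogenes. The SD of log2(FPKM + 1) within genotypes had a median of 0.352 over the members, 0.347 over the other processed pseudogenes, 0.131 over the parents and 0.120 over all genes tested. By level, the medians were 0.378 for members and 0.149 for all genes at 1 to 10 FPKM, 0.365 and 0.103 at 10 to 100 FPKM, and 0.197 and 0.104 above 100 FPKM. The other processed pseudogenes had medians of 0.343, 0.424 and 0.306 at these levels, above the members in the upper levels. The 71 members annotated as processed had a median of 0.389 and the 29 others one of 0.166, and copies of ribosomal protein genes had one of 0.472 against 0.255 for the other members. The median was 0.228 for the 23 members with at least 95% of their stretches in another gene, 0.414 for the 35 with 50% to 95% and 0.246 for the 42 with less. An SD over 1 was found in 15 members, 290 of the 16095 genes tested and 84 of the 471 other processed pseudogenes. These are descriptions, since genes are no replicates.

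**Figure D4:**
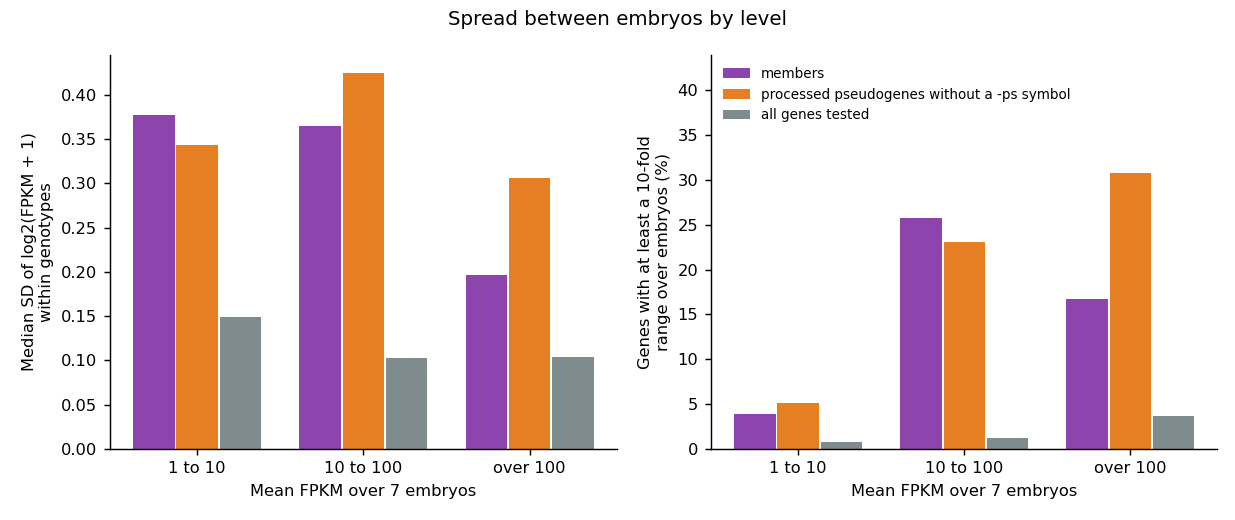
Left, the median SD of log2(FPKM + 1) within genotypes (vertical axis), and right, the percentage of genes whose highest FPKM + 1 was at least 10 times the lowest (vertical axis), by mean FPKM over the 7 embryos (horizontal axis). Bars stand for the members (purple), processed pseudogenes without a -ps symbol (orange) and all genes tested (grey), and both kinds of pseudogene lie above all genes tested in each class of level.

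Just above the limit of 1 FPKM stood Plk-ps1, Ppp1r2-ps4 and Mid1-ps1 with means of 1.01, 1.02 and 1.02 FPKM. Just under it stood Hmgb1-ps3, Kansl2-ps and Olfr839-ps1 with 0.997, 0.963 and 0.860 FPKM. Plk-ps1 was at 0.883 to 1.10 FPKM in every embryo, while Kansl2-ps ran from 0 to 2.93 FPKM.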

How the data were processed

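Whole embryos, 3 SLMAP3 KO and 4 WT, were sequenced from TruSeq RNA v2 libraries, and genotypes came from the sample labels. The authors deposited 1 FPKM value per gene and embryo, with sums of 770063 to 861448 per embryo. The submitters' processing notes name Salmon, DESeq2, MultiQC and the build GRCm38, without versions. The mean normalized count of each gene, a signal over all embryos made by the authors, was used as the depth behind its values. Their own log2 fold changes, standard errors and p-values were not used, nor were counts per embryo, so that no counting interval is given.

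KO and WT embryos were compared on log2(FPKM + 1) over the 16095 genes with a mean of at least 1, by limma 3.58.1 under R 4.3.3 (lmFit, eBayes with trend, no covariate), with Benjamini-Hochberg adjustment over all of them and a threshold of 0.05. The fit was tested on simulated normal values. These do not resemble members split between a low and a high level, so that the simulation is no check of calls on such members. Fold changes on this scale understate those of low genes. Single sums and ratios were compared with exact permutation tests. Sequences, positions and 50-base stretches came from GENCODE M21, which holds all 100 member identifiers. Copies share reads, and how the quantification divided them was not tested, so member values are uncertain. Nothing states that embryos came from separate litters, so p-values measure only the spread between these samples.

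Named members were the called ones, up to 10 of largest change without overlap, the 8 most abundant, the 8 of largest spread, those listed at 0 in some embryo and reaching 1 FPKM in another, those nearest the limit, those of families with a call, and the 5 of largest family share. The members, the lists and these rules were chosen with earlier results of these data known. Alternatives were pseudocounts of 0.1 and 0.01, no filter, a limit of 5 FPKM on the mean, quantile normalization, scaling by the FPKM sum or by median ratios, a block for the embryo series given in the labels, family sums, and leaving out each embryo.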

Additional observations from a re-analysis of the deposited data

Results flagged for a closer look

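In 7 of the 37 named members whose WT values could be examined, 1 of the 4 WT embryos stood far from the other 3, by a gap whose share of the WT range is above Dixon's critical value. Chance flags about 1 in 20 groups, but several of these members were named for their spread or for a value of 0, so that this rate is no measure for them. In the WT embryo KOAC8-1, Rpl15-ps2 was lowest, at 0.620 FPKM against 48.9 FPKM and above (gap 0.962 of the range). In the same embryo Rpl15-ps3 was highest, at 370.3 against 92.3 FPKM and below (0.841), as were Rpl39-ps, at 79.9 against 12.1 FPKM and below (0.848), and Mid1-ps1, at 1.74 against 0.283 FPKM and below (0.837). In KOAC9-1, Rps26-ps1 was highest, at 1069 against 78.1 FPKM and below (0.981), and so was Mrpl23-ps1, at 65.3 against 57.3 FPKM and below (0.870). In KOAC10-7, Pdcd5-ps was at 26.4 FPKM and listed at 0 in the other 3 WT embryos (gap 1.00 of the range).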

How the results depend on the processing

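Nutf2-ps1 was called under every alternative run on its own values, all of which start from the same WT values of 0. With the embryo series as a block the called members were 2, since Rps26-ps1 was added (log2 fold change 3.54, adjusted p = 0.0167), and with 1 embryo left out they were 1 to 2. Without the WT embryos KOAC8-1 and KOAC9-1 and the KO embryo KOAC10-5, each alone, Rpl15-ps2 (-5.50), Rps26-ps1 (3.54) and Rps18-ps3 (-3.52) were added. In each case the embryo left out was the closest of its genotype to the other genotype, so that the added call followed from its removal. KOAC9-1 is alone in its series, so that the block leaves it out of the comparison. With family sums in place of single genes 1 of the sums was called, that of Rps18, and the Nutf2 sum was not. With an embryo left out, 14 to 24 of the 100 members did not overlap between the genotypes, and 10 to 16 ratios to the parent did not, while the share of all genes tested rose from 11.6% to between 14.4% and 28.4%. By embryo, the members were 18 without KOAC8-6 (18.4% of all genes), 24 without KOAC10-5 (28.4%), 17 without KOAC10-8 (17.9%) and 17 without KOAC9-1 (14.4%), and the ratios 16 without KOAC10-8. The median log2 fold change stayed between 0.028 and 0.073. Of the named members' log2 fold changes, 516 of 557 kept their direction and side of the threshold. Those that reversed had none past it. With the series block these were Rpl3-ps1 (0.33), Eif3s6-ps2 (-1.14), Rps15a-ps7 (0.012), Rpl31-ps21 (0.52) and Nlrp5-ps (-0.19), and Rpl31-ps21 also at pseudocounts of 0.1 (0.44) and 0.01 (1.24). With an embryo left out, values ran from -2.49 to 2.32 for Rpl3-ps1, -1.78 to 1.39 for Eif3s6-ps2, -2.51 to 1.23 for Rpl39-ps, -2.23 to 0.37 for Trmt112-ps2, -0.0061 to 0.81 for Ppp1r2-ps4, -0.50 to 0.39 for Rps12-ps10, -0.72 to 0.17 for Rpl23a-ps3, -0.48 to 0.44 for Rps15a-ps7, -0.56 to 0.052 for Kpna2-ps, -0.56 to 0.52 for Rpl31-ps21, -0.013 to 0.057 for Plk-ps1, -0.19 to 0.30 for Nlrp5-ps, -0.012 to 0.20 for Rpl10-ps3 and -0.011 to 0.31 for Rpl28-ps1. The cause was not tested. The block on the embryo series compares embryos within series, and the replicate numbers, which follow the order of deposit, pair none.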
